A study of Mus musculus with 9 samples.

Results

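Tbr1, Neurod2, Neurod6, Slc17a7 and Fezf2 are genes of the glutamatergic projection neurons of the cerebral cortex. They were followed here across 9 microarrays of mouse olfactory bulb, as a measure of how much tissue of the cortex or of the anterior olfactory area each dissected bulb held. The members were found by gene symbol in the deposited signal table, and all 5 had 1 probe set each, 5 of the 21367 probe sets that carry a single symbol (21154 symbols). Male ICR mice, an outbred stock, 8 weeks old by the labels, were kept singly and breathed an aerosol by whole-body inhalation for 7 days after 7 days of acclimation. A tail suspension test, which scores immobility as a measure of despair-like behaviour, followed 30 min of inhalation. The vehicle group breathed 1% Tween 80, a detergent, and the other groups breathed linalyl acetate, an ester of lavender oil, at 1% or at 10%. Each group had 3 arrays. Whether Tween was also in the linalyl acetate aerosols is not stated, nor whether each array is 1 animal, so p-values measure the spread between these samples only.

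Some labels go against each other. Groups were taken from the sample titles. The descriptions of vehicle replicates 1 and 2 name saline, that of vehicle replicate 3 names an injection of lipopolysaccharide, and those of 1% replicates 1 and 2 name oleacein with lipopolysaccharide. The design text describes a human cell line. Whether vehicle replicate 3 was treated in another way cannot be told from these sources. Vehicle replicate 3, 1% replicate 2 and 10% replicate 2 had been picked out with cortical marker genes in earlier work on the same arrays, so the height of the 5 genes on these 3 arrays is a description and carries no test. Results that rest on them are given with and without them.

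Cortical projection neurons are the excitatory cells of the cortex that send axons to other regions. Their identity is set after the last division by a cascade of transcription factors, and in the adult many of these factors remain on. The anterior olfactory nucleus, a cortical structure, lies directly behind the bulb, and its pyramidal neurons share this programme. The bulb has its own glutamatergic projection neurons, the mitral and tufted cells, which also use Tbr1 and Slc17a7. Most bulb neurons are GABAergic granule and periglomerular interneurons, which do not belong to this lineage.

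The promoters of the 3 genes that separated the arrays most clearly, Tbr1, Neurod2 and Neurod6, are shown. Each runs from 250 bases before to 50 bases after the start of the gene (RefSeq, GRCm38.p6) and is written 5′ to 3′ on the gene's own strand. Tbr1 lies at chr2:61804203-61804502 on the plus strand, Neurod2 at chr11:98329596-98329895 on the minus strand and Neurod6 at chr6:55681214-55681513 on the minus strand. Capitals mark matches to CANNTG, the E-box that basic helix-loop-helix factors such as the Neurod proteins bind.
Tbr1: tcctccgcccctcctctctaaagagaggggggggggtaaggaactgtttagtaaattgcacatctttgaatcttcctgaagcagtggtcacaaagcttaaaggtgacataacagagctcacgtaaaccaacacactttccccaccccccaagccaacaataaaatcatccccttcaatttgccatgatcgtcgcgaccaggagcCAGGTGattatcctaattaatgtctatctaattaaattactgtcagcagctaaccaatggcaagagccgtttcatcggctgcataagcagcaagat
Neurod2: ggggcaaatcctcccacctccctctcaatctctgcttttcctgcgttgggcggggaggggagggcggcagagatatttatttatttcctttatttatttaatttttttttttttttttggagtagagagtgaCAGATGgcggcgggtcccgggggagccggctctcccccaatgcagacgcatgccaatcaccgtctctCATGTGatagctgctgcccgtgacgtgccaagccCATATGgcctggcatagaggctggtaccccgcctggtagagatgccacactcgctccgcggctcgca
Neurod6: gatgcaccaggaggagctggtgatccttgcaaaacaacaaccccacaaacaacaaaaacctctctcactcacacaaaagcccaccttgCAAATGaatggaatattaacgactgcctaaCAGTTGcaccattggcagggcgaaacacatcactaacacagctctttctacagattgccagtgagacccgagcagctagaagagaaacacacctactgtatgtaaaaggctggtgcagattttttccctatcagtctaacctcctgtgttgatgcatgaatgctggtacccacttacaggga

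The Neurod2 promoter held 3 matches to CANNTG, that of Neurod6 held 2, and those of Tbr1 and Slc17a7 held 1 each. The Fezf2 promoter held 0. CANNTG reads the same on both strands and occurred in 72.3% of 32851 mouse promoters of the same length, so its presence does not set these genes apart. The Neurod form CAGATG, which is itself 1 of the CANNTG words, was searched on both strands and matched once, in the Neurod2 promoter, against 17.2% of all promoters. The T-box word GGTGTGA, also searched on both strands, matched in 0 of the 5 windows and in 3.98% of all promoters.

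All signals below are log2 values after the authors' normalization (SST-RMA), so that a difference of 1 is a doubling. Tbr1 encodes a T-box factor of early-born, deep-layer cortical neurons and of mitral and tufted cells. Its signal was 9.54, 9.70 and 12.11 in vehicle replicates 1 to 3. In the 1% group it was 10.52, 12.32 and 10.99, and in the 10% group 9.52, 12.54 and 9.75. One array of each group stood high, and these 3 arrays lay above all the other 6 by at least 1.12. The lowest and the highest array differed by 3.02, or 8.11-fold.

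Neurod2 and Neurod6 encode basic helix-loop-helix factors of postmitotic pyramidal neurons. Neurod2 read 5.22, 4.70 and 7.58 in the vehicle arrays, 6.37, 6.98 and 6.53 in the 1% arrays, and 5.98, 8.19 and 6.37 in the 10% arrays. The same 3 arrays were the highest, but the gap to the other 6 was only 0.45, because 1% replicate 2 stood only 0.53 above the mean of the other arrays of its group. Neurod6 read 6.53, 7.04 and 8.68 in the vehicle arrays, 7.11, 9.50 and 6.87 in the 1% arrays, and 6.19, 9.57 and 6.48 in the 10% arrays. It showed the cleanest separation of the 5, with a gap of 1.57 between the 3 high arrays and the other 6. The total range was 3.49 for Neurod2 and 3.38 for Neurod6, with no fold given, since the low ends lie below the median of the array's negative control probe sets.

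Fezf2 encodes a zinc-finger factor that specifies layer 5 neurons projecting below the cortex. It read 5.25, 6.69 and 6.93 in the vehicle arrays, 5.76, 6.47 and 6.26 in the 1% arrays, and 6.24, 7.18 and 5.62 in the 10% arrays. The same array was again the highest of each group, but vehicle replicate 2 lay above 1% replicate 2, so that the 3 arrays and the other 6 overlapped by 0.22. Slc17a7 encodes VGLUT1, the transporter that loads glutamate into synaptic vesicles of cortical and of mitral and tufted neurons. It read 15.53, 16.10 and 16.50 in the vehicle arrays, 15.97, 17.00 and 16.61 in the 1% arrays, and 16.13, 17.04 and 15.28 in the 10% arrays. Here 1% replicate 3 lay above vehicle replicate 3 by 0.11. The range was 1.76 (3.39-fold) for Slc17a7 and 1.93 for Fezf2, whose low end also lies below the negative control median.

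**Figure D1:**
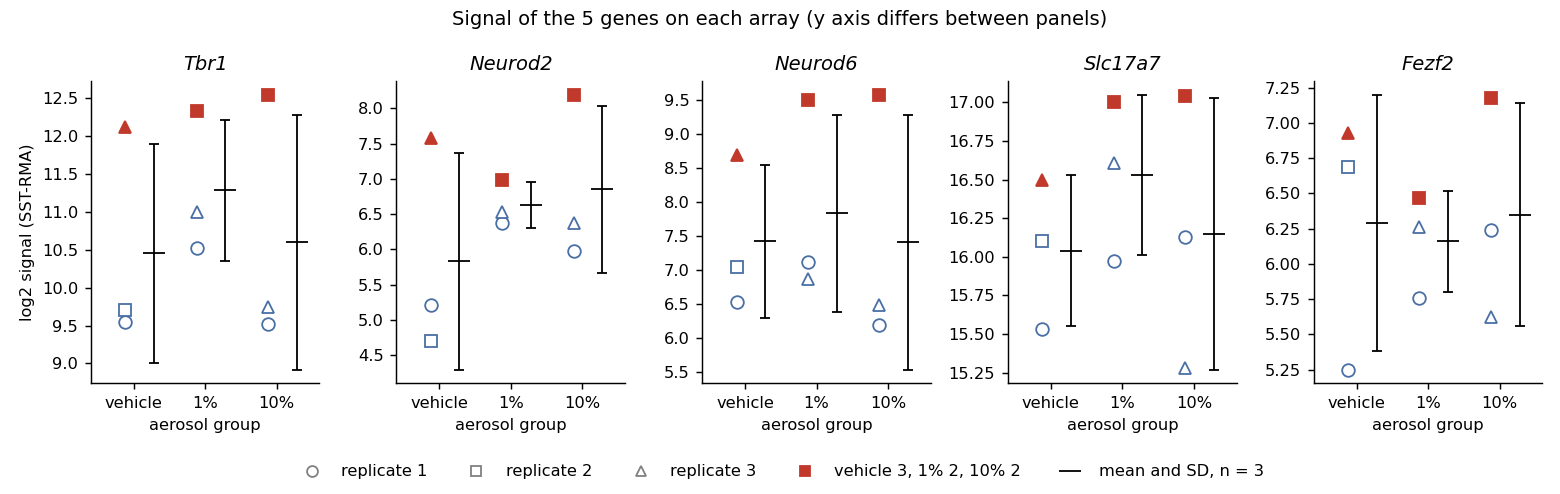
Log2 signal of Tbr1, Neurod2, Neurod6, Slc17a7 and Fezf2 on each of the 9 arrays, by aerosol group; marker shape gives the replicate number, red marks vehicle replicate 3, 1% replicate 2 and 10% replicate 2, and the black bar gives the group mean with its SD (n = 3). In all 5 panels the red array is the highest of its group, and for Tbr1, Neurod2 and Neurod6 the 3 red points lie above all the other 6.

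All 5 genes were thus the highest of their group in vehicle replicate 3, 1% replicate 2 and 10% replicate 2. Over the 21362 probe sets of other genes, 7.08% had their group maximum in these same 3 arrays and 6.28% their group minimum. The count of 5 was the same after quantile normalization, after centring each array on its median and in the series matrix values. The mean of the 5 genes was 10.36, 10.45 and 10.90 on the 3 arrays and 8.41 to 9.45 on the other 6. Among those 6, 1% replicates 1 and 3 had the highest means, at 9.15 and 9.45. Vehicle replicate 2 and 10% replicates 1 and 3 stood at 8.85, 8.81 and 8.70, and vehicle replicate 1 was the lowest.

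The excess of the high array over the mean of the other 2 arrays of its group measured how far each gene moved. For Tbr1 it was 2.49 in the vehicle group, 1.57 in the 1% group and 2.90 in the 10% group. For Neurod6 it was 1.89, 2.51 and 3.23, and for Neurod2 2.62, 0.53 and 2.01. Slc17a7 (0.68, 0.71 and 1.34) and Fezf2 (0.96, 0.46 and 1.25) moved less. The excess was largest in the 10% group for Tbr1, Neurod6, Slc17a7 and Fezf2, and in the vehicle group for Neurod2. By this excess, vehicle replicate 3 stood ahead of 1% replicate 2 for Tbr1, Neurod2 and Fezf2 and behind it for Neurod6 and Slc17a7. The excess also depends on the other 2 arrays of the group, which for Tbr1 averaged 9.62 in vehicle and 10.75 at 1%. By the signal itself, Tbr1 was higher on 1% replicate 2 (12.32) than on vehicle replicate 3 (12.11), whereas Neurod2 and Fezf2 were lower.

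The spread within groups was high for all 5 genes. The pooled SD within groups was 1.52 for Neurod6, 1.39 for Tbr1, 1.13 for Neurod2, 0.72 for Fezf2 and 0.65 for Slc17a7, against a median of 0.26 over all 21367 probe sets. These values lie at percentiles 99.8, 99.7, 99.5, 98.5 and 98.0 of all probe sets. In bulk tissue, more cells of a type and more RNA per cell cannot be told apart, and that holds for each of these differences.

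The signals stand at different heights over the array's negative control probe sets, whose median was 6.87 to 7.12 and whose 95th percentile was 10.78 to 11.11 on the 9 arrays. Slc17a7 exceeded the 95th percentile on all 9 arrays. Tbr1 exceeded the median on all 9 and the 95th percentile on 4, the 3 high arrays and 1% replicate 3. Neurod2 exceeded the negative control median on 3 arrays only, the 3 high ones, and Neurod6 on 4, those and 1% replicate 1. Fezf2 exceeded it on 1 array, 10% replicate 2. These 3 genes exceeded the 95th percentile on 0 arrays, so that their signals stayed within the range of the negative controls throughout.

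The 5 genes followed each other over the arrays. Over 9 arrays Pearson's r between pairs of them ran from 0.56 (Neurod2 and Fezf2) to 0.95 (Tbr1 and Neurod6). These values are descriptions with no p, since the points share arrays and 3 of them lie apart. Over the other 6 arrays alone, the pairs ranged from -0.22 (Neurod2 and Fezf2) to 0.72 (Slc17a7 and Fezf2). Tbr1 kept r of 0.60 to 0.62 with Neurod2, Neurod6 and Slc17a7 there, whereas Neurod2 and Neurod6, the related pair, had -0.10. Outside the 3 high arrays, the 5 genes were thus only partly ordered alike.

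The label was set beside gene lists of cortical, bulb and neighbouring cell types, each read as its mean deviation from the genes' own 9-array means. Since the 3 arrays were picked with cortical markers and the lists were made with earlier results known, these values describe the arrays and are no test of the label. Of 29 measured genes of cortical excitatory neurons other than the 5 members, 14 were highest of their group in the same 3 arrays and 0 lowest. The list stood at 0.44 to 0.49 on these arrays and at -0.51 to -0.08 on the other 6. The median r of its genes with the mean of the 5 was 0.72, against -0.05 over all 21149 symbols of other genes. Slc30a3, the vesicular zinc transporter of cortical glutamatergic terminals, had r of 0.99, Camk2a 0.986 and Nrgn, a calmodulin-binding protein of forebrain dendrites, 0.962. Cux2, a factor of upper-layer neurons, had 0.909. Of the 29 genes, 23 had r above 0, 8 of them at 0.9 or more, and 6 had r below 0. Genes known for particular layers or subtypes lay at both ends, with Rorb of layer 4 at 0.848, Bcl11b at 0.135, Sox5 at -0.015, and Tle4 and Foxp2 of layer 6 at -0.285 and -0.538.

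Mitral and tufted cell genes, the other glutamatergic programme of the tissue, split. Of 16 measured, 4 were highest of their group in the 3 arrays and 4 lowest, and their median r was -0.28. Cdhr1, a cadherin of mitral and tufted cells, read 13.02, 13.40 and 12.86 on the 3 high arrays and 13.73 to 14.39 on the other 6 (r of -0.907). Eomes, the T-box factor of these cells and a relative of Tbr1, read 12.20, 12.37 and 11.84 against 12.62 to 13.87 (r of -0.84). Thy1 (0.934) and Cck (0.759), which cortical neurons also express, went with the 5 genes. Tbr1 and Slc17a7, which both programmes use, therefore went with the cortical list and against Cdhr1 and Eomes.

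Bulb interneuron genes ran the other way. Of 20 genes of granule and periglomerular cells, 13 were the lowest of their group in the 3 arrays and 1 the highest, and the median r was -0.75. The list stood at -0.34 to -0.23 on these arrays and at -0.05 to 0.27 on the other 6. Meis2, a factor of granule cells, read 16.57, 16.79 and 16.90 on the 3 arrays and 17.21 to 17.70 on the others. Synpr, the gene of the vesicle protein synaptoporin, read 15.83, 16.06 and 16.14 against 16.45 to 16.93. The bulb's own markers were present throughout, with 11 of the 20 interneuron genes and 8 of the 16 mitral and tufted genes above the 95th percentile of the negative controls on all 9 arrays.

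Other lists moved with the 5 genes in part. Of 11 myelin genes, 7 were highest in the 3 arrays (median r of 0.69), with the list at 0.18 to 0.42 there and at -0.59 to 0.03 on the other 6. The 15 genes of striatal projection neurons, cells of the region below the cortex, stood at 1.41 in vehicle replicate 3, but at -0.06 in 1% replicate 2 and -0.03 in 10% replicate 2. Of these genes, 13 had r above 0 with the mean of the 5 (median r of 0.51). The second-highest value of the striatal list, 0.55, fell on 1% replicate 3, an array on which the 5 genes stood at their own mean. On vehicle replicate 3 the 5 genes and the mean of the striatal list both stood high, and on the other 2 high arrays the mean of the striatal list did not. Of 10 olfactory ensheathing glia genes, 0 were highest and 4 lowest in the 3 arrays, with a median r of -0.53. Lists of astrocytes (8 genes), neuroblasts (8), microglia (7), endothelium (7), olfactory sensory neurons (12) and cortical interneurons (9) had medians of r between -0.33 and 0.35. The part of these cell types in the values of the 5 genes was not tested.

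**Figure D2:**
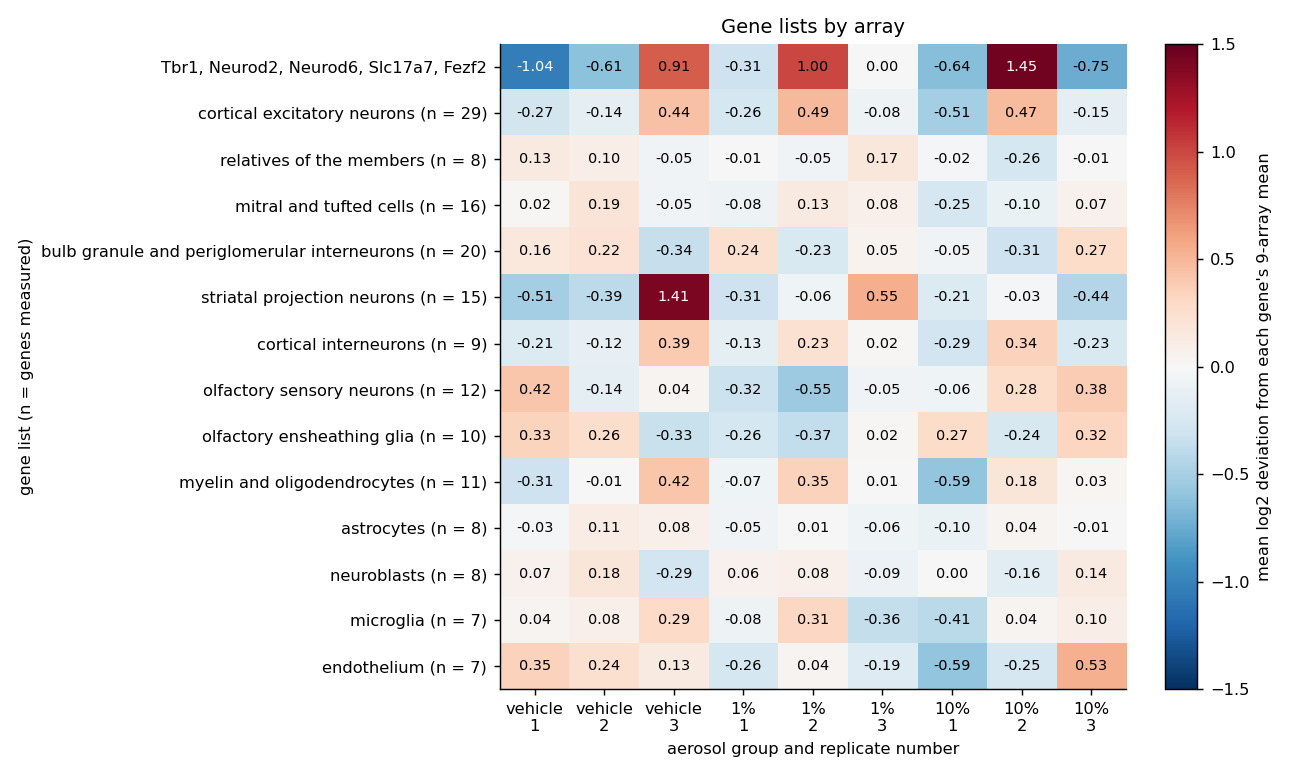
Mean log2 deviation of the 5 genes (top row) and of 13 gene lists from each gene's own 9-array mean, by array; columns are the 9 arrays, red is above and blue below that mean, and n is the number of genes measured. The 5 genes are at 0.91, 1.00 and 1.45 in vehicle replicate 3, 1% replicate 2 and 10% replicate 2, where the cortical excitatory list is at 0.44 to 0.49, and the bulb interneuron list at -0.34 to -0.23.

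Close relatives of the 5 genes did not share their pattern. Of the 8 measured (Neurod4, Neurog1, Neurog2, Eomes, Tbx21, Slc17a6, Slc17a8 and Fezf1), 0 were highest and 1, Eomes, was lowest in the 3 arrays. Slc17a6, which encodes VGLUT2, read 8.22 to 8.81 on all 9 arrays, with r of 0.16. Fezf1, the paralogue of Fezf2, had r of -0.339, and Tbx21, a T-box factor of mitral and tufted cells, -0.277. Of the 8, 5 lay below the negative control median on all 9 arrays, so their flat course says little about their expression.

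The genes whose pattern over the 9 arrays was most like the mean of the 5 were ranked by Pearson's r, among genes at or above the median signal. The first 10 were Adcy1 (0.995), Slc30a3 (0.99), Fam135b (0.988), Camk2a (0.986), Adap1 (0.986), Gabbr2 (0.984), Dlg4 (0.984), Ppp2r2c (0.981), Caln1 (0.981) and Psd (0.981). Adcy1, a calmodulin-activated adenylyl cyclase, read 11.36, 11.44 and 11.73 on the 3 high arrays and 9.64 to 10.36 on the other 6. Camk2a, a kinase of excitatory synapses, read 18.60, 18.75 and 18.77 against 17.30 to 17.90. Most opposite were Dcx (-0.968), Fam184a (-0.967), Lrch2 (-0.961), Mgst1 (-0.96), Enah (-0.96), L3mbtl2 (-0.95), Ntng1 (-0.947), Ntn4 (-0.944), Plppr5 (-0.944) and C2cd5 (-0.941). Dcx, doublecortin, marks the migrating neuroblasts that reach the bulb throughout life, and read 13.56, 13.53 and 13.43 against 13.87 to 14.28. The neuroblast list did not follow Dcx as a whole. Of its 8 genes, 3 were lowest of their group in the 3 arrays and 1, Stmn1 (r of 0.875), was highest. The median r of the list was -0.33.

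Of the 21362 other probe sets, 258 (1.21%) had r of 0.9 or more with the mean of the 5 genes and 56 (0.262%) had r of -0.9 or less. The high arrays weigh heavily in these values. When r was taken over the other 6 arrays only, 256 of the 258 kept a positive sign but 27 (10.5%) still reached 0.9, and 54 of the 56 kept a negative sign with 5 (8.93%) at -0.9 or less. Adcy1 had 0.97, Fam135b 0.96 and Camk2a 0.94 over those 6 arrays, and Dcx had -0.75.

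**Figure D3:**
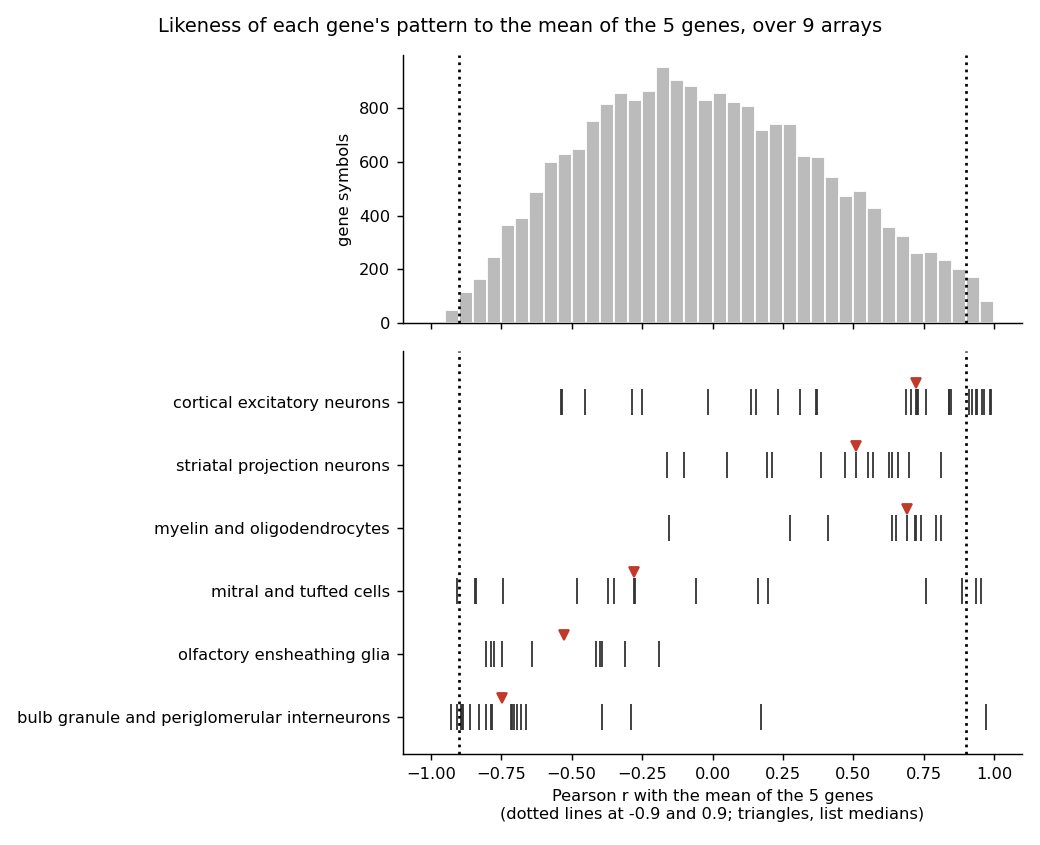
Upper panel: number of gene symbols by Pearson's r with the mean of Tbr1, Neurod2, Neurod6, Slc17a7 and Fezf2 over 9 arrays; lower panel: r of each gene (tick) of 6 lists, with the list median as a triangle and dotted lines at -0.9 and 0.9. The medians run from 0.72 for cortical excitatory neurons to -0.75 for bulb granule and periglomerular interneurons, and mitral and tufted genes lie on both sides.

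The 3 aerosol groups were compared for each of the 5 genes with limma, fitted on all 21367 probe sets of the 9 arrays, with Benjamini-Hochberg adjustment over all of them. Between 1% linalyl acetate and vehicle, Tbr1 differed by 0.83 ± 0.84 (SE, n = 3 per group). Neurod2 differed by 0.79 ± 0.69, Slc17a7 by 0.48 ± 0.41, Neurod6 by 0.41 ± 0.91 and Fezf2 by -0.13 ± 0.45. All 5 had a limma adjusted p of 0.998. Of the 5 genes, 0 passed the adjusted threshold of 0.05, as did 0.0% of all probe sets, and 0 passed an unadjusted p of 0.05, which 3.42% of all probe sets did. The authors' criterion, an unadjusted p under 0.05 with a fold over 2, also took 0 of the 5, against 0.164% of all probe sets, and it took 0 of the 5 at 10% against vehicle (0.197%) and between the doses (0.108%). The 95% intervals are wide: that of Tbr1 ran from -1.01 to 2.67 and that of Slc17a7 from -0.43 to 1.39.

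Between 10% linalyl acetate and vehicle, Neurod2 differed by 1.01 ± 0.69 (limma adjusted p = 0.998) and the other 4 by 0.00 to 0.15. The 95% interval of Neurod2 ran from -0.50 to 2.53 and that of Neurod6 from -2.01 to 2.00. Between the doses, 10% minus 1%, the differences were -0.67 for Tbr1, -0.41 for Neurod6, -0.38 for Slc17a7, 0.22 for Neurod2 and 0.18 for Fezf2, each with a limma adjusted p of 0.999. Again 0 of the 5 passed an adjusted or an unadjusted p of 0.05, against 0.0% and 3.78% of all probe sets for 10% against vehicle and 0.0% and 3.0% between the doses. The groups overlapped for all 5 genes in all 3 comparisons. Over all probe sets, 9.22%, 7.46% and 7.1% had groups that did not, so 0 of the 5 does not set these genes apart. With 3 arrays a group, exact permutation reaches no p below 0.1, and none was run for single genes.

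Without the 3 high arrays, 2 arrays per group remained and the spread fell. Tbr1 then differed between 1% and vehicle by 1.14 ± 0.23 (n = 2 per group, limma adjusted p = 0.515) and Neurod2 by 1.49 ± 0.25 (limma adjusted p = 0.235). Between 10% and vehicle, Neurod2 differed by 1.22 ± 0.25 (limma adjusted p = 0.866) and Tbr1 by 0.02 ± 0.23. Between the doses, Tbr1 differed by -1.12 ± 0.23 (limma adjusted p = 0.883) and Neurod6 by -0.65 ± 0.24 (limma adjusted p = 0.996). At an unadjusted p of 0.05 these are 2, 1 and 2 of the 5 genes, beside 5.81%, 5.41% and 4.39% of all probe sets, and 0 passed the adjustment. The arrays left out were the highest of their group for all 5 genes, so leaving them out lowers the spread of these genes by its construction, and nothing is read from these counts. The Neurod2 values behind these differences, 4.70 to 6.53, all lie below the negative control median of their array. For Tbr1, both 1% arrays left (10.52 and 10.99) lay above both vehicle arrays (9.54 and 9.70) and both 10% arrays (9.52 and 9.75). With 2 arrays per group, 7706 of the 21367 probe sets did not overlap between 1% and vehicle. The count between the doses is given further below. Nothing is read from this order of the Tbr1 values either.

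Leaving out vehicle replicate 3 or 10% replicate 2 alone also moved such values. Without vehicle replicate 3, Neurod2 differed from vehicle by 1.67 at 1% (limma adjusted p = 0.904). At 10% it differed by 1.89 (limma adjusted p = 0.943). Both passed an unadjusted p of 0.05, as did 1165 and 1047 of the 21367 probe sets in these comparisons. The vehicle values left for Neurod2, 5.22 and 4.70, lie below the negative control median. Without 10% replicate 2, Tbr1 differed between the doses by -1.64 and Slc17a7 by -0.82, both with a limma adjusted p of 0.958. Both passed an unadjusted p of 0.05, as did 954 of the 21367 probe sets. Each array left out was the highest of its group for all 5 genes, which lowers the spread by construction. Nothing is read from these counts.

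The authors' deposited table gives other fold changes for the 5 genes than the array means. Its group averages matched a one-step Tukey biweight of the 3 arrays, an average that gives an array far from the group median little or no weight, within 0.02 for 100.0% of 22206 probe sets in each group, and arithmetic means for 34.9% to 37.8%. In the 15 combinations of the 5 genes and 3 groups, a biweight computed here gave weight 0 to a high array in 4 cases: vehicle replicate 3 and 10% replicate 2 for Tbr1, and 1% replicate 2 and 10% replicate 2 for Neurod6. In 1 case it gave weight 0 to a low array, vehicle replicate 1 for Fezf2. For Neurod2, vehicle replicate 3 and 10% replicate 2 had weights close to 0, at 0.024 and 0.015.

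For Tbr1 at 1%, the authors' deposited table gives a fold change of 2.73 with a p of 0.3472, where the array means gave 1.77-fold. For Neurod2 it gives 2.95 at 1% and 2.29 at 10%, against 1.73-fold and 2.02-fold from the means. For Neurod6 the sign differs at 1%, with -1.06 in the authors' deposited table and 1.33-fold higher from the means. At 10%, that table gives -1.67 for Neurod6, with a p of 0.9967, where the means differed by 0.00. For Fezf2 it gives -1.5 at 1% and -1.41 at 10%, against a mean difference of -0.13 and 0.06 on the log2 scale. The averages of Neurod2 and Fezf2 lie below the negative control median in every group, so their folds compare signals at that level. The 10% average of Neurod6 (6.34) also lies below that median. Slc17a7, in which no array had weight 0, had 1.41 and 1.07 in the authors' deposited table and 1.40-fold and 1.08-fold from the means. The fold changes of Tbr1 and Neurod2 at 1% and of Neurod2 at 10% exceed 2 in the authors' deposited table, and their p-values there (0.3472, 0.2813 and 0.1748) do not pass the authors' threshold of 0.05.

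**Figure D4:**
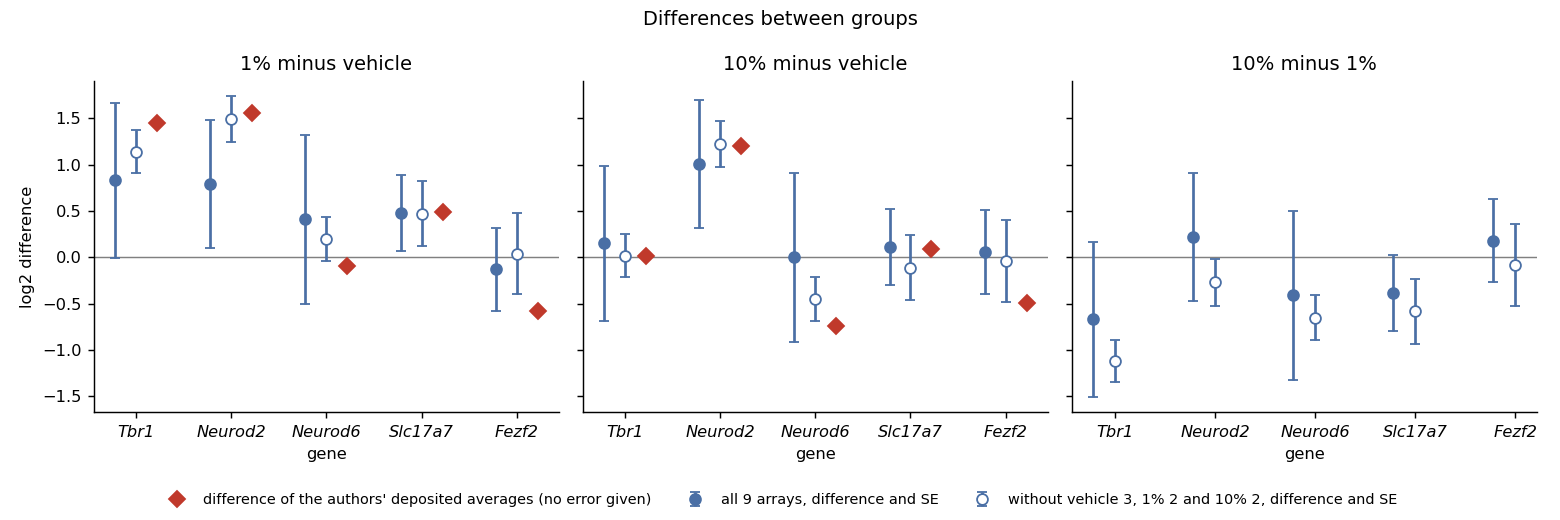
Log2 differences between aerosol groups for the 5 genes: filled circles, all 9 arrays (n = 3 per group) with SE; open circles, without vehicle replicate 3, 1% replicate 2 and 10% replicate 2 (n = 2 per group) with SE; red diamonds, difference of the averages in the authors' deposited table, for the comparisons with vehicle. At 1%, the diamonds of Tbr1 (1.45) and Neurod2 (1.56) lie near the open circles (1.14 and 1.49) and above the filled ones (0.83 and 0.79).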

How the data were processed

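RNA of 9 olfactory bulb samples, 3 per group, was hybridised to Clariom S arrays. The authors deposited log2 signals for 22206 probe sets, normalized with SST-RMA per the labels (Transcriptome Analysis Console 4, per the submitters' processing notes). Their deposited tables of comparisons give group averages (log2), p-values and a signed fold change, read here as a score. No source used here names the genome build of the array annotation. In 27 cells of the signal table, a date stood in place of a number and was decoded. Probe sets with several symbols (836) or none (3) were left out. A limma 3.58.1 means model (R 4.3.3) was fitted to 21367 probe sets of 9 arrays, with 6 residual and 5.27 prior degrees of freedom, and tested on simulated data. Likeness was Pearson's r with the mean of the 5 genes, counted at 0.9, the 10 highest and lowest being named among symbols at or above the median signal and without predicted names. Of each list, relatives were all named, and of the other lists up to 4 genes of highest mean signal (some are not printed). Slc30a3, Nrgn, Cux2, Rorb, Bcl11b, Sox5, Tle4, Foxp2, Eomes as a mitral gene, Calb1, Lhx6, Pvalb and Vip were named after their values were seen. The members and lists were chosen with earlier results of these data known. Replicate numbers were not used as pairs in the main fit. Of 9 same-numbered pairs, 2 had a correlation of deviations over 0.1 (range -0.16 to 0.28), which cannot show whether the samples were paired. The alternatives tried were other scalings, fits, filters and left-out arrays. The number of arrays limits the precision. Python 3.11.15 with pandas 2.3.3 read the files.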

Additional observations from a re-analysis of the deposited data

How the results depend on the processing

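In the 15 comparisons of the 5 genes, 0 of 279 alternative values passed the adjusted threshold, the lowest limma adjusted p was 0.235, and 28 changed direction. Without the 3 high arrays these were Neurod2 between the doses (-0.27), Slc17a7 at 10% against vehicle (-0.11), and Fezf2 at 1% (0.04), at 10% (-0.04) and between the doses (-0.08). With array weights, Neurod6 at 10% against vehicle was 0.17. The other changes of direction came from leaving out 1 array. Neurod2 and Fezf2 lie below the median signal, so keeping the brighter probe sets gave no value for them.

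Leaving out each array in turn moved the differences over these ranges. Against vehicle at 1%, they were 0.30 to 1.66 for Tbr1, 0.23 to 1.67 for Neurod2, -0.43 to 1.04 for Neurod6, 0.23 to 0.76 for Slc17a7 and -0.65 to 0.19 for Fezf2. At 10% they were -0.82 to 0.98, 0.34 to 1.89, -1.08 to 0.63, -0.34 to 0.54 and -0.46 to 0.42. Between the doses they were -1.64 to -0.13, -0.45 to 0.65, -1.49 to 0.42, -0.82 to 0.06 and -0.23 to 0.55.

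Over all genes, 0 passed the adjusted threshold in each comparison. Without the 3 high arrays, 11 passed at 1% against vehicle, 12 at 10% and 0 between the doses; leaving out 1 array gave 0 to 7, 0 to 12 and 0 to 2. At an unadjusted p of 0.05, 731, 807 and 642 genes passed. Without the 3 high arrays 1241 passed at 1%, and with array weights 1172; with probe sets at or above the median signal only, 317, 417 and 238 passed, since fewer were tested. Leaving out 1 array gave 566 to 1165, 684 to 1530 and 571 to 954. Of the 5 genes, 0 passed this level; without the 3 high arrays 2, 1 and 2 did, and without 1 array 0 to 1, 0 to 1 and 0 to 2.

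With a fold over 2 as well, 35, 42 and 23 genes passed. Without the 3 high arrays it was 139, 92 and 89, with trend and robust moderation 21 and 25 against vehicle, with array weights 58 at 1%, and with the brighter probe sets 22 and 26. Leaving out 1 array gave 33 to 118, 30 to 81 and 21 to 93. Groups did not overlap for 1971, 1595 and 1516 genes. It was 7706, 6861 and 6283 without the 3 high arrays, where 2 arrays per group separate more easily, 998, 765 and 672 among the brighter probe sets, and up to 5059, 4553 and 4113 without 1 array.

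Genes like the mean of the 5 numbered 258 and opposite genes 56. Centring on group means gave 422 and 188, and leaving out the 3 high arrays, an alternative chosen after seeing the data, gave 187 and 159. Leaving out 1 array gave 233 to 334 and 70 to 135. With the replicate number as a block, the difference of Tbr1 at 1% stayed 0.83 (limma adjusted p = 0.997). In that fit, 730, 790 and 648 genes had an unadjusted p under 0.05. Whether the replicate numbers pair the samples cannot be told from these values. The cause of these changes was not tested where none is given.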

Other observations

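Genes of inhibitory neurons did not all run against the 5 cortical genes. Sst, the somatostatin gene of a cortical interneuron class, read 8.96, 9.70 and 13.18 in the vehicle arrays, 10.44, 13.43 and 11.26 in the 1% arrays and 8.88, 13.43 and 9.39 in the 10% arrays. Its r with the mean of the 5 genes was 0.979 over 9 arrays and 0.92 over the 6 arrays without vehicle replicate 3, 1% replicate 2 and 10% replicate 2. Calb1, the calbindin gene, listed here with periglomerular cells but also used by cortical neurons, read 9.04, 9.66 and 9.55 on those 3 arrays and 6.29 to 7.02 on the other 6. It was the only gene of 20 on the bulb interneuron list that was highest of its group in all 3. On the list of 9 cortical interneuron genes, 4 were highest of their group in the 3 arrays: Sst, Lhx6 (r of 0.74), Pvalb (0.674) and Vip (0.647). The other 5 had r below 0, among them Npy (-0.392), Adarb2 (-0.642) and Nxph1 (-0.714). Of the 9 genes, 2 lay below the negative control median on all 9 arrays. Lhx6 was 1 of these, at 3.06 to 4.66, with r of -0.45 over the other 6 arrays, so its order says little about its expression. Pvalb lay near that median, at 7.13 to 8.15 on the 3 arrays and 6.25 to 7.03 on the other 6.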
